A study of Mus musculus with 21 samples.

Results

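The 10 genes described here encode the machinery that carries a cyclic AMP signal from the membrane to protein kinase A and on to transcription. They are Gnas, Pde4b, Prkar1a, Prkar2a, Prkar2b, Prkaca, Prkacb, Akap12, Akap13 and Creb1, and they were taken by name, as named parts of the pathway, from the 35598 genes of the deposited tables. All 10 were among the 13898 genes with enough reads to test. The glomeruli, the filtering units of the kidney, were cut from frozen sections by laser and profiled by QuantSeq FWD, which reads the 3' end of polyadenylated transcripts. All 21 animals were female mice aged 3 months with both copies of Epac1 floxed, and each gave 1 library. Mice called cKO also carried a Cre recombinase that acts in podocytes, the epithelial cells that wrap the glomerular capillaries, and littermates without the Cre are called flox. Nephritis was induced by intravenous decomplemented nephrotoxic serum on 2 consecutive days and glomeruli were taken at day 4 or day 11; PBS was injected in the controls. There were 3 cKO and 3 flox mice given PBS, 4 cKO and 3 flox mice at day 4, and 4 cKO and 4 flox mice at day 11. The deletion is limited to podocytes, while a glomerulus also holds endothelial, mesangial and parietal cells whose Epac1 stays in place.

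Cyclic AMP is made by adenylyl cyclases when a receptor activates the stimulatory G protein, and phosphodiesterases break it down. Protein kinase A is held inactive as a tetramer of regulatory and catalytic subunits, and cyclic AMP binding to the regulatory subunits frees the catalytic ones. Anchoring proteins tether the kinase near its substrates, and in the nucleus it phosphorylates the transcription factor CREB. Epac1, the product of Rapgef3, is the other main cyclic AMP sensor of the podocyte, an exchange factor for Rap GTPases that acts apart from protein kinase A.

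Akap12, which encodes a scaffold that binds protein kinase A and other kinases beneath the plasma membrane, was the only member that changed by the test. It was 2.41-fold higher at day 11 of nephritis than after PBS, averaged over the genotypes. That call was lost when any 1 of 9 of the 21 libraries was left out. None of the 10 genes passed the test between cKO and flox glomeruli at any stage, and none passed the test of whether the genotypes differed in their response to nephritis. Prkar2b was without reads in 10 of the 21 libraries, and its folds are not given because the flox PBS libraries held no reads of it.

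The stretches below show how the kinase recognises its partners, since the regulatory subunits and CREB differ at this site and the counts cannot show it. Each is 48 bases of coding sequence from GENCODE M21 transcripts (GRCm38), 5′ to 3′, and capitals mark the 4 codons of the recognition stretch. In RIα, the product of Prkar1a, this stretch is a pseudosubstrate that occupies the active site without being phosphorylated. In RIIα and RIIβ, the products of Prkar2a and Prkar2b, it is a substrate that the catalytic subunit phosphorylates, and in CREB it holds the serine by which the factor is activated.
Prkar1a: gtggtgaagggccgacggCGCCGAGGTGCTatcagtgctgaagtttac
Prkar2a: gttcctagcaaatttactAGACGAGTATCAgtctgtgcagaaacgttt
Prkar2b: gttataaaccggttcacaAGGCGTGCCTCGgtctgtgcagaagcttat
Creb1: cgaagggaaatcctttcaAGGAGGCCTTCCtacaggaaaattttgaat
The Prkar1a stretch lies in 1 exon at chr11:109660089-109660136 on the plus strand. The other stretches each span a splice junction, at chr9:108714278-108716879 on the plus strand for Prkar2a, chr12:31993767-32038652 on the minus strand for Prkar2b and chr1:64566283-64570146 on the plus strand for Creb1.

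The cyclic AMP response element that CREB binds, TGACGTCA, reads the same on both strands. It was found in 588 of 32851 RefSeq promoter windows (GRCm38.p6) that run from 250 bases before to 50 bases after a start site, or 1.79%. Windows were available for 9 of the members, Akap12 being the exception, and 2 of their 24 windows held the element, both of them at Prkar1a. In the Prkar1a window chr11:109650699-109650998, on the plus strand, 41 bases lay between the element and the start site. The shorter form TGACG, searched on both strands and contained in the full element, was in 10 of the 24 windows (41.7%) and in 20.8% of all windows. Windows of 1 gene are not independent: Prkar1a had this form in 3 of its 6 windows and Gnas in 3 of its 4. The percentages therefore do not show an excess among the members. A match describes the letters only.

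The libraries held 4550550 to 24295712 reads (median 19470098), and between 7871 and 13006 genes had a read. The library of cKO day 11 replicate 3 had the fewest reads and that of cKO day 4 replicate 3 the fewest genes. For Prkaca, Pde4b and the Akap12 call, values without these doubted libraries are given beside the results. Levels below are counts per library scaled to CPM with TMM-adjusted totals, and since 3' reads are not divided by length, levels are compared between groups and not between genes. Summed podocyte markers (10 genes) ranged from 3851 to 8129 CPM at day 11, with a median of 5973. They ranged from 5210 to 8621 CPM at day 4 (median 7181) and from 6133 to 8385 CPM after PBS (median 8142). Podocyte markers were thus read at every stage. The day 4 low of 5210 CPM was that of cKO day 4 replicate 3, where summed proximal tubule markers (8 genes) were 6155 CPM. Rapgef3 averaged 121 ± 50.2 CPM in cKO and 270.2 ± 60.5 CPM in flox after PBS (SD, n = 3 each), 120 ± 38.8 (n = 4) and 191 ± 58.0 (n = 3) at day 4, and 176.9 ± 28.7 and 204.5 ± 100.7 (n = 4 each) at day 11. The log2 difference over the stages was -0.68 ± 0.25 (SE) and did not pass the test (adjusted p = 0.55). The 3' reads may lie outside the deleted part of the gene, so they do not check the deletion. Because these are bulk samples, fewer cells of a type and less RNA per cell cannot be told apart.

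**Figure D1:**
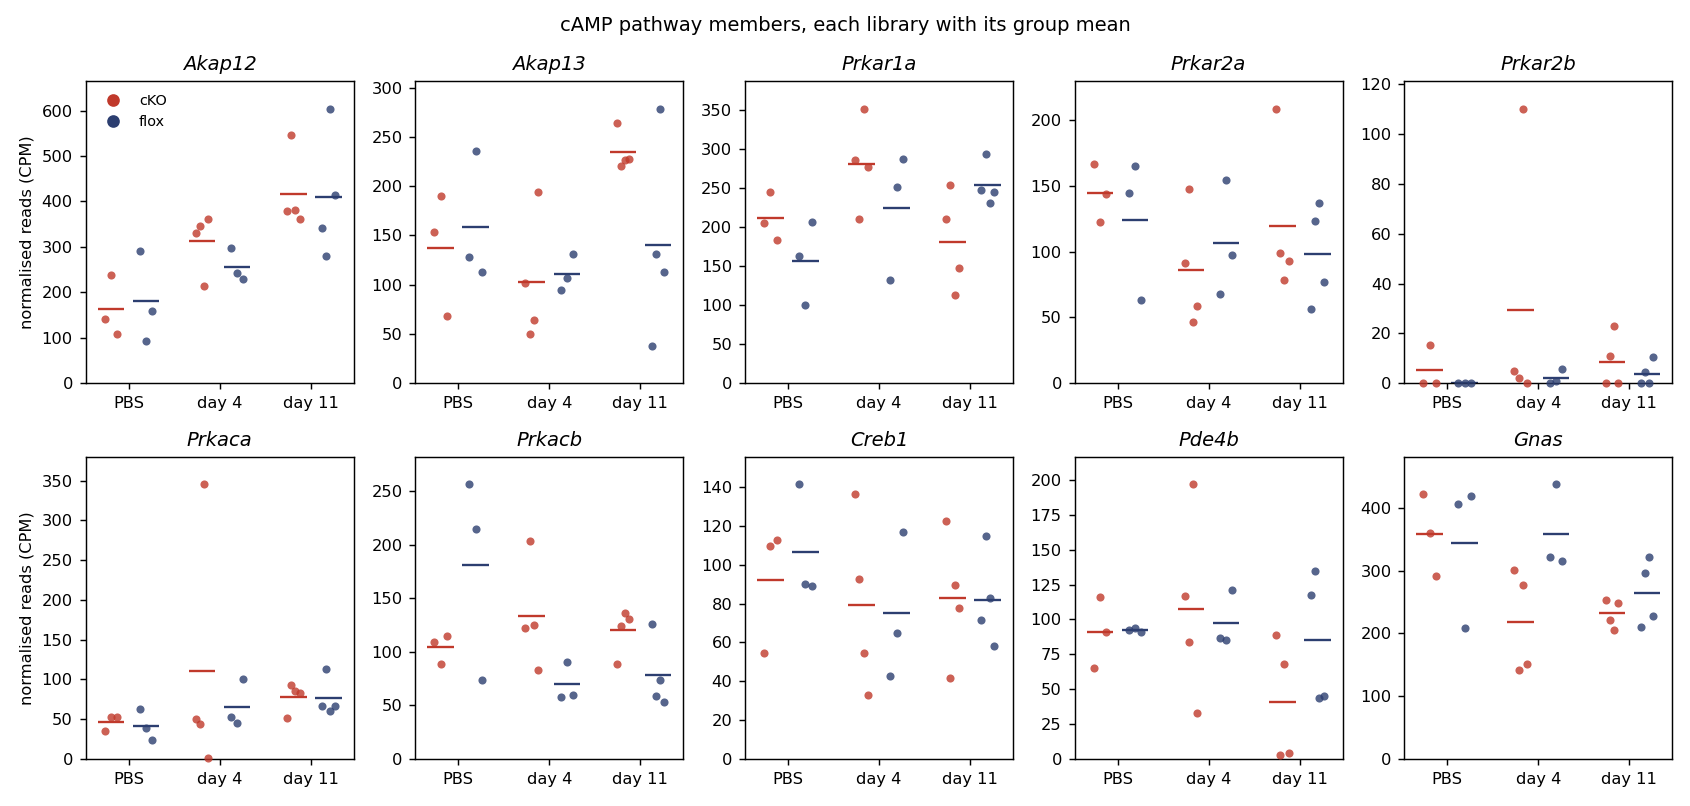
Level in CPM (y axis, linear, from 0) of each of the 10 genes in each library by stage (x axis), with cKO in red to the left of flox in blue and a horizontal line at each group mean. The Akap12 points lie between 279 and 605 CPM at day 11 and between 93.9 and 292 CPM after PBS, so these ranges overlap, as those of the other genes do, and Prkar2b sits near 0 in all but a few libraries.

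Gnas (chromosome 2, 174284320 to 174346744, plus strand, GRCm38) encodes the alpha subunit of the stimulatory G protein, which turns on adenylyl cyclase. After PBS it measured 422, 360.3 and 292 CPM in cKO and 406, 209 and 419 CPM in flox. At day 4 it measured 301, 142, 278 and 151 CPM in cKO and 322, 438 and 315 CPM in flox, so that every cKO library lay below every flox library. Its day 11 values were 253, 221, 206 and 249.2 CPM in cKO and 211, 297, 322 and 228 CPM in flox, and the groups overlapped. The day 4 difference between cKO and flox was -0.72 ± 0.33 on the log2 scale (SE) (adjusted p = 0.661). Non-overlap of this kind was found for 4.46% of all genes tested at day 4. Averaged over the genotypes, day 11 against PBS gave -0.50 ± 0.24 (adjusted p = 0.51) and day 4 gave -0.33 ± 0.24 (adjusted p = 0.832). Within cKO, all 4 day 11 libraries lay below all 3 PBS libraries, which held for 6.78% of genes in either direction. Other annotated genes of this imprinted locus overlap Gnas, 3 on its own strand and 2 on the opposite strand, none of them over its annotated 3' end. Counts are per gene, so transcripts annotated within the Gnas entry itself are not told apart. The strand setting of the counting is not given in the sources used here.

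Pde4b (chromosome 4, 102087543 to 102607259, plus strand) encodes a phosphodiesterase specific for cyclic AMP. After PBS it measured 65.2, 116 and 91.1 CPM in cKO and 92.2, 93.5 and 91.2 CPM in flox. At day 4 the values were 117, 83.9, 196.9 and 33.1 CPM in cKO and 86.5, 84.9 and 121 CPM in flox. At day 11 they were 88.6, 2.89, 67.8 and 4.08 CPM in cKO and 118, 135, 43.6 and 45.4 CPM in flox, so that 2 cKO libraries were far below all others while the other 2 lay within the flox range. The day 11 difference between cKO and flox was -1.06 ± 0.77 (adjusted p = 1), with -2.13 by limma voom, -1.62 with the replicate block and -1.42 without both doubted libraries, none of them passing. The change from PBS was 0.16 ± 0.60 at day 4 and -0.63 ± 0.58 at day 11 (adjusted p = 1 for both). The day 4 value depended on cKO day 4 replicate 3 and was -0.07 without that library and cKO day 11 replicate 3.

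Prkar1a (chromosome 11, 109649405 to 109669656, plus strand) encodes the type I regulatory subunit RIα. It measured 205, 244 and 184 CPM in cKO and 163, 100 and 206 CPM in flox after PBS. At day 4 it measured 286, 210.3, 352 and 277 CPM in cKO and 132, 252 and 287 CPM in flox. At day 11 it measured 210.1, 254, 113 and 148 CPM in cKO and 247, 293, 230.2 and 244 CPM in flox. In flox mice every day 11 library lay above every PBS library, as 6.39% of genes did in one direction or the other, while in cKO mice the 2 groups overlapped. The difference of the genotypes in their day 11 response was -0.92 ± 0.52 (adjusted p = 0.804). Averaged over the genotypes, the change from PBS was 0.47 ± 0.27 at day 4 and 0.24 ± 0.26 at day 11, with adjusted p of 0.654 and 1 in that order.

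Prkar2a (chromosome 9, 108689314 to 108750436, plus strand) encodes the type II subunit RIIα, which binds most anchoring proteins tightly. It averaged 144 ± 21.97 CPM in cKO and 124 ± 54.0 CPM in flox after PBS (SD, n = 3 each). The day 4 means were 86.0 ± 45.3 CPM in cKO (n = 4) and 106 ± 44.0 CPM in flox (n = 3), and the day 11 means were 120 ± 59.9 CPM in cKO and 98.3 ± 38.2 CPM in flox (n = 4 each). A single cKO library at day 11 stood at 209 CPM, with the other 3 between 78.6 and 99 CPM. The change from PBS was -0.48 ± 0.40 at day 4 and -0.30 ± 0.39 at day 11, with adjusted p of 0.904 and 1 in that order.

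Prkar2b (chromosome 12, 31958476 to 32061296, minus strand) encodes RIIβ, a form known from adipose tissue and brain. Its levels were 0, 15.4 and 0.0896 CPM in cKO and 0 in all 3 flox libraries after PBS, where 3 reads over the group would have been 0.0545 CPM. They were 5.03, 2.07, 110 and 0 CPM in cKO and 0, 0.788 and 5.52 CPM in flox at day 4, and 0, 10.9, 22.8 and 0 CPM in cKO and 0, 4.33, 0 and 10.4 CPM in flox at day 11. The highest value came from cKO day 4 replicate 3. In that library the summed proximal tubule markers (8 genes) were 6155 CPM and those of the distal nephron and collecting duct (6 genes) 3824 CPM, the highest of the 21 libraries for both lists, and their part in the value was not tested. The gene passed the test in none of the 8 comparisons.

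Prkaca (chromosome 8, 83972993 to 83996443, plus strand) and Prkacb (chromosome 3, 146729574 to 146812990, minus strand) encode the catalytic subunits Cα and Cβ, which carry the kinase activity. Prkaca measured 34.95, 52.4 and 53.2 CPM in cKO and 62.5, 38.4 and 24.4 CPM in flox after PBS. The widest of its groups was cKO at day 4, with 50.5, 44.2, 346 and 1.16 CPM in cKO against 52.2, 44.7 and 100.6 CPM in flox. The day 11 values of Prkaca were 51.9, 92.6, 85.1 and 83.0 CPM in cKO and 66.8, 113, 60.6 and 67.0 CPM in flox. The change from PBS was 0.95 ± 0.67 at day 4 and 0.81 ± 0.65 at day 11, with adjusted p of 0.799 and 0.944 in that order. Without the libraries of cKO day 4 replicate 3 and cKO day 11 replicate 3 the day 4 change was 0.05 ± 0.62 (adjusted p = 1), and the day 11 change was 0.79 ± 0.61 (adjusted p = 0.864). The 346 CPM came from cKO day 4 replicate 3, the same library that was high for Prkar2b. Without it and cKO day 11 replicate 3, the day 4 difference between cKO and flox was -1.04, against 0.75 ± 0.91 with them (adjusted p = 1 for both).

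Prkacb measured 109, 88.7 and 114 CPM in cKO and 256, 214 and 73.5 CPM in flox after PBS. At day 4 it measured 122, 203, 125 and 82.7 CPM in cKO and 58.2, 90.4 and 59.8 CPM in flox, and at day 11 it measured 88.96, 124, 136 and 131 CPM in cKO and 126, 58.9, 73.6 and 53.3 CPM in flox. The cKO mean thus lay below the flox mean after PBS and above it at both stages of nephritis, with overlap at each. The difference of the genotypes in their day 4 response was 1.74 ± 0.76 (adjusted p = 0.572), and that at day 11 was 1.42 ± 0.73 (adjusted p = 0.753). Averaged over the genotypes, the change from PBS was -0.51 ± 0.37 at day 4 and -0.51 ± 0.36 at day 11, with adjusted p of 0.823 and 0.853 in that order.

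The reads of both catalytic genes can be set against each other within a library, where scaling drops out. This measure was chosen after the values were seen and is given without a test. Prkaca took 31.0% ± 6.46 of the reads of the pair in cKO and 19.9% ± 4.87 in flox after PBS (SD, n = 3 each). At day 4 the share was 29.2%, 17.9%, 73.5% and 1.38% in cKO and 47.3%, 33.1% and 62.7% in flox. At day 11 it ran from 36.9% to 42.8% in cKO and from 34.6% to 65.7% in flox. The PBS libraries ran from 24.3% to 37.1% in cKO and from 15.2% to 24.9% in flox. How often other gene pairs spread in this way was not computed. The widest 95% Clopper-Pearson interval, which covers counting error only, was 35.4% to 41.5% in cKO day 11 replicate 3.

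**Figure D2:**
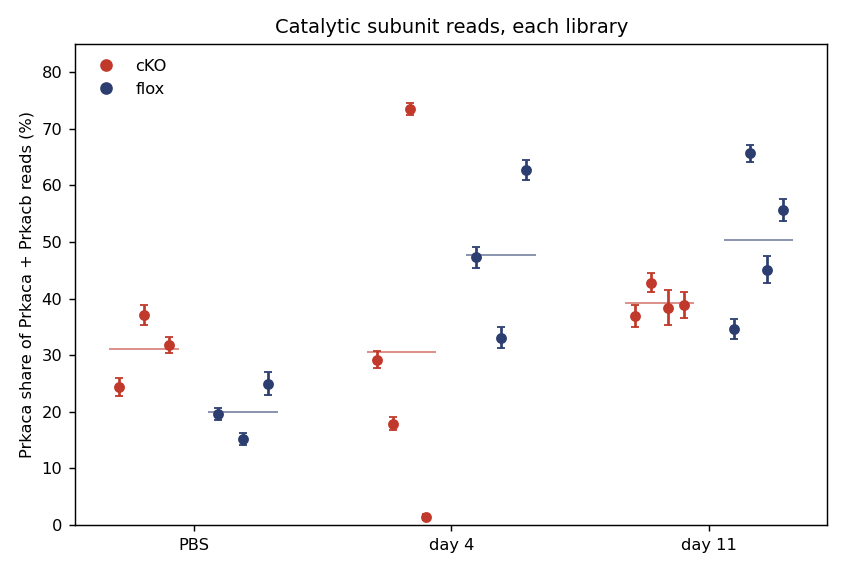
Share of the Prkaca plus Prkacb reads that came from Prkaca (y axis, percent) in each library by stage (x axis), cKO left of flox, with 95% exact binomial intervals for counting error. The cKO day 4 libraries spread from 1.38% to 73.5%, and the flox libraries are lowest after PBS.

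Akap12 (chromosome 10, 4266380 to 4359470, plus strand) measured 142, 238 and 109 CPM in cKO and 292, 93.9 and 159 CPM in flox after PBS. At day 4 it measured 330, 346, 215 and 361 CPM in cKO and 299, 242 and 229 CPM in flox. At day 11 it measured 379, 546, 381 and 361 CPM in cKO and 342, 279, 605 and 414 CPM in flox. All cKO libraries at day 11 lay above all cKO PBS libraries, a separation that 6.78% of all genes showed in one direction or the other, while in flox the lowest day 11 library (279 CPM) lay below the highest PBS library (292 CPM). The group means were 417 ± 86.7 CPM in cKO and 409.9 ± 141 CPM in flox at day 11 (SD, n = 4 each), against 163 ± 66.9 CPM in cKO after PBS (n = 3) and 181.5 CPM in flox after PBS, where the libraries covered a range of 93.9 to 292 CPM (n = 3). Averaged over the genotypes, the day 11 log2 fold change was 1.27 ± 0.27, with a 95% interval of 0.73 to 1.81 and an adjusted p of 0.0346 by edgeR. The day 4 change was 0.72 ± 0.27 with an interval of 0.18 to 1.27, and it did not pass (adjusted p = 0.391).

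The Akap12 call at day 11 was near the threshold. It was lost, with adjusted p between 0.05 and 0.154, on leaving out any of cKO PBS replicates 1 and 3, flox PBS replicates 2 and 3, cKO day 11 replicates 1, 2 and 4, or flox day 11 replicates 3 and 4. Over all 21 such fits the log2 fold change stayed between 1.11 and 1.52. Without both doubted libraries it was 1.29 (adjusted p = 0.0208). Taken 1 genotype at a time, in contrasts added after the values were seen, day 11 against PBS gave 1.36 ± 0.38 in cKO (adjusted p = 0.632) and 1.18 ± 0.37 in flox (adjusted p = 0.579). The response did not differ between the genotypes by the test, at 0.44 ± 0.53 for day 4 and 0.18 ± 0.51 for day 11 (adjusted p = 1 for both). The cKO minus flox difference itself was -0.16 ± 0.39 after PBS, 0.29 ± 0.36 at day 4 and 0.02 ± 0.34 at day 11.

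Cell type markers also differed in level at day 11. Of the 10 podocyte markers, 8 had a fold change below 0 against PBS, with a median of -0.50, and Thsd7a was called lower at -1.80 ± 0.20 (adjusted p = 6.85e-06). Of the 8 macrophage markers 6 lay above 0 (median 0.89), and of the 6 parietal epithelial markers 5 did (median 0.93), none of them called. Summed macrophage markers ranged from 173 to 976 CPM at day 11 and from 208 to 715 CPM after PBS. Summed parietal markers ranged from 16.1 to 261 CPM at day 11 and from 14.7 to 110.5 CPM after PBS. Of the 7 mesangial markers 6 lay below 0 (median -0.24), and of the 8 glomerular endothelial markers 5 did (median -0.21), none of them called. Summed mesangial markers ranged from 708 to 1189 CPM at day 11 and from 886 to 1510 CPM after PBS. Summed endothelial markers ranged from 3169 to 5742 CPM at day 11 and from 4686 to 7039 CPM after PBS. Tubule markers, from outside the glomerulus, lay lower. Of the proximal tubule markers 8 of 8 (median -0.44) had a fold change below 0, as did 5 of 6 distal nephron and collecting duct markers (median -0.82). Erythrocyte markers lay below 0 in 5 of 5 (median -1.70), and none of these markers was called. Summed erythrocyte markers ranged from 482.5 to 15670 CPM at day 11 and from 2013 to 18280 CPM after PBS. Summed levels ranged from 448 to 2862 CPM at day 11 and 1550 to 4037 CPM after PBS for the proximal tubule. For the distal nephron and collecting duct they ranged from 438 to 1526 CPM at day 11 and 1272 to 2589 CPM after PBS. The composition of the reads differed too. Mitochondrial genes took 3.52% to 4.55% of reads in cKO and 2.32% to 7.21% in flox at day 11, against 5.21% to 7.37% in cKO and 5.06% to 5.84% in flox after PBS. The ribosomal RNA gene took 22.2% to 39.5% in cKO and 15.4% to 30.1% in flox at day 11, against 17.3% to 25.4% in cKO and 21.9% to 22.9% in flox after PBS. Without ribosomal and mitochondrial genes the Akap12 log2 fold change was 1.27 (adjusted p = 0.0301). The part of the marker shifts in the Akap12 level was not tested.

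Akap13 (chromosome 7, 75455534 to 75754609, plus strand) encodes a large anchoring protein that binds protein kinase A. It measured 153.3, 190 and 68.0 CPM in cKO and 128, 236 and 112 CPM in flox after PBS. The day 4 values were 102, 50.3, 63.8 and 194 CPM in cKO and 94.2, 107 and 131 CPM in flox. Its day 11 values were 264, 220.1, 226 and 228 CPM in cKO and 37.6, 132, 279 and 113 CPM in flox, so that the cKO libraries lay close together and the flox libraries on both sides of them. The cKO day 11 libraries all lay above those of cKO PBS, again against 6.78% of all genes that separated. The day 11 difference between cKO and flox was 0.74 ± 0.49 (adjusted p = 1), and the change from PBS over both genotypes was -0.47 ± 0.39 at day 4 and 0.30 ± 0.38 at day 11, with adjusted p of 0.905 and 1 in that order.

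Creb1 (chromosome 1, 64532645 to 64604548, plus strand) encodes the CREB transcription factor, which is regulated chiefly by phosphorylation. It had the narrowest spread of group means among the members with reads in every group, the highest being 1.42 times the lowest. It averaged 92.2 ± 32.6 CPM in cKO and 107 ± 30.0 CPM in flox after PBS (SD, n = 3 each), 79.1 ± 45.5 CPM (n = 4) and 75.0 ± 38.01 CPM (n = 3) in cKO and flox at day 4, and 82.9 ± 33.3 CPM and 81.8 ± 24.3 CPM in cKO and flox at day 11 (n = 4 each). The change from PBS was -0.37 ± 0.46 at day 4 and -0.27 ± 0.44 at day 11 (adjusted p = 1 for both).

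Read across the pathway, nephritis against PBS at day 11 called 1 of the 10 members, and 17 of the 13898 genes tested, or 0.122%, were called. With 16 of the 17 higher, the calls in the direction of Akap12 made up 0.115% of genes. The other members had adjusted p of at least 0.51, and 2 of the 10, Akap12 and Gnas, had an unadjusted p under 0.05, as did 9.12% of all genes. The median fold change of the members was -0.01, against 0.07 for all genes tested. At day 4 none of the members was called, against 0.0216% of all genes (0.0144% for higher calls alone). Their median was -0.08 against 0.01 for all genes. Here too 2 members, Akap12 and Prkar2b, had an unadjusted p under 0.05, against 9.28% of all genes. The Prkar2b value rests in part on the flox PBS group, which held no reads of it. No member separated day 4 from PBS libraries within a genotype, against 6.14% of all genes in cKO and 10.7% in flox. At day 11, 3 of the 10 members (Akap12, Akap13 and Gnas) separated from PBS in cKO, against 6.78% of all genes, and 1 of the 10 (Prkar1a) did in flox, against 6.39%. With the genotypes pooled, 0 members separated at day 11, against 0.245% of all genes. When the 6 groups were put in order of their means, each of the 5 neighbouring pairs overlapped within 1 SD for every member. Sorting places the closest means side by side, so this says nothing of groups farther apart. The share of all genes with such overlap was not computed.

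**Figure D3:**
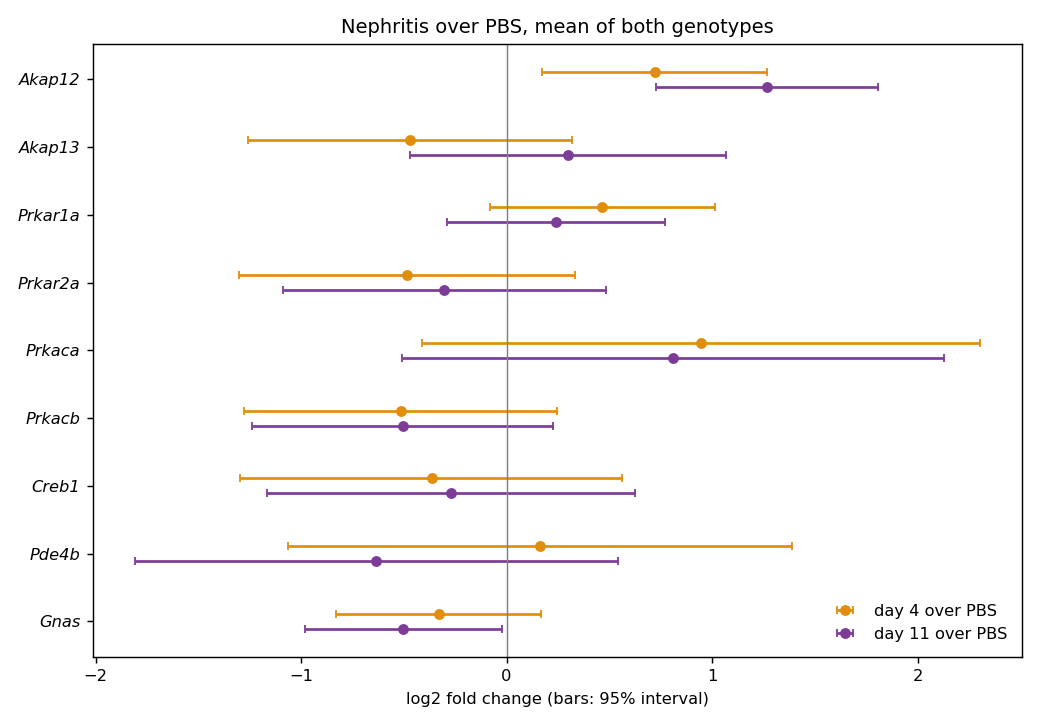
Log2 fold change of nephritis against PBS, averaged over cKO and flox, at day 4 and day 11 (x axis), with 95% intervals, for the members with reads in every group (y axis). The interval of Akap12 at day 11 runs from 0.73 to 1.81, and apart from Akap12 at both stages and Gnas at day 11 every interval crosses 0.

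Between cKO and flox none of the 10 members passed the test in the mean over stages, where 0.0072% of all genes were called, nor after PBS, at day 4 or at day 11, where 0% were. The lowest adjusted p of a member was 0.614 over the stages, 0.726 after PBS, 0.661 at day 4 and 1 at day 11. An unadjusted p under 0.05 was found for Prkar2b over the stages and after PBS, for Gnas at day 4 and for 0 members at day 11, against 6.62%, 6.02%, 7.42% and 5.86% of all genes. The lowest adjusted p over the stages and after PBS was also that of Prkar2b. Its flox PBS group held no reads, and cKO PBS replicate 2 held 314 of the 316 reads of its group. Averaged over the stages, the cKO minus flox difference was 0.05 ± 0.21 for Akap12, 0.14 ± 0.31 for Akap13, 0.09 ± 0.21 for Prkar1a and 0.07 ± 0.32 for Prkar2a. It was 0.31 ± 0.52 for Prkaca, 0.25 ± 0.30 for Prkacb, -0.04 ± 0.36 for Creb1, -0.32 ± 0.47 for Pde4b and -0.28 ± 0.19 for Gnas. Without the libraries of cKO day 4 replicate 3 and cKO day 11 replicate 3 the Prkaca value was -0.30 ± 0.50 and the Pde4b value -0.59 ± 0.48. Apart from Gnas at day 4, 0 members had cKO and flox libraries that did not overlap, against 10.2% of all genes after PBS and 2.52% at day 11. The intervals are wide, so a moderate difference in either direction cannot be told from none in most of these genes. For Akap12 the 95% interval ran from -0.38 to 0.48 and for Creb1 from -0.77 to 0.70.

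**Figure D4:**
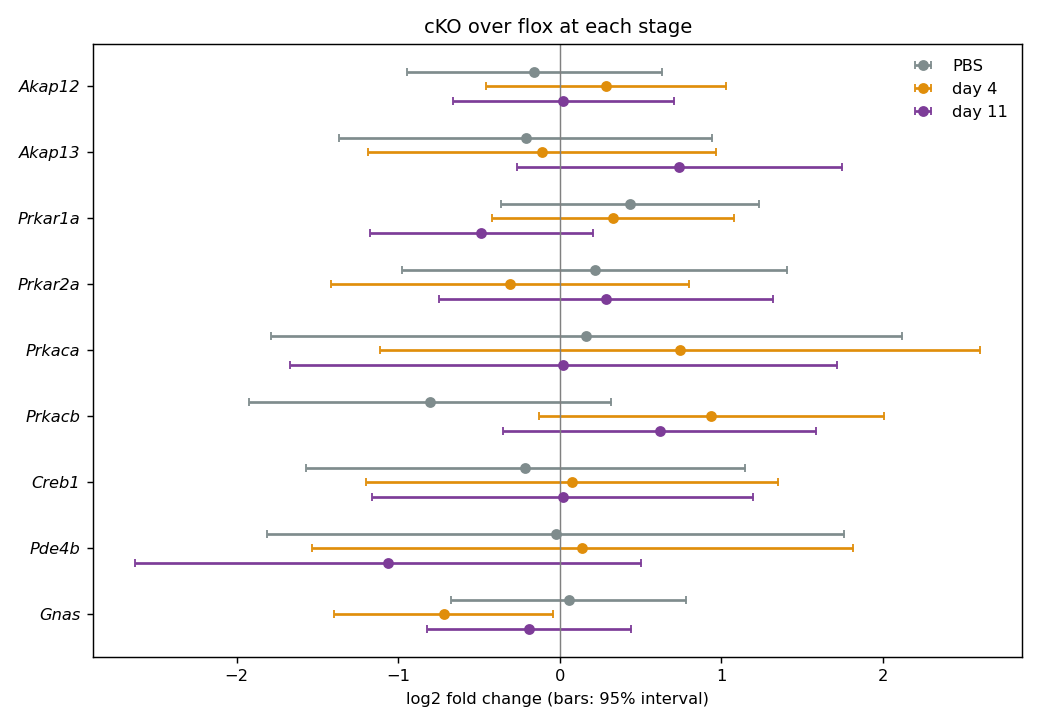
Log2 difference of cKO minus flox after PBS, at day 4 and at day 11 (x axis), with 95% intervals, for the members with reads in every group (y axis). The interval of Gnas at day 4 runs from -1.39 to -0.04, and none of the values passed the adjusted test.

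The test of whether cKO and flox differed in their response called 0 members and 0% of all genes at both stages, and 1 member at day 4 (Prkacb) and 0 at day 11 had an unadjusted p under 0.05, against 7.74% and 6.94% of all genes. These tests are centred below 0. The median over all genes was -0.28 at day 4 and -0.20 at day 11, and median-ratio scaling moved the day 4 median by 0.126 to -0.15. Besides the values given above, the day 4 difference in response was 0.10 ± 0.78 for Akap13, -0.10 ± 0.54 for Prkar1a, -0.52 ± 0.80 for Prkar2a, 0.58 ± 1.32 for Prkaca, 0.29 ± 0.92 for Creb1, 0.17 ± 1.20 for Pde4b and -0.77 ± 0.49 for Gnas. Without both doubted libraries it was -1.21 for Prkaca and -0.30 for Pde4b. The day 11 difference was 0.95 ± 0.75 for Akap13, 0.07 ± 0.77 for Prkar2a, -0.14 ± 1.27 for Prkaca, 0.23 ± 0.88 for Creb1, -1.04 ± 1.16 for Pde4b and -0.24 ± 0.47 for Gnas.

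Wider lists of the pathway gave no further call at either stage of nephritis or between the genotypes. Of the 22 anchoring proteins listed, 17 were tested and 1, Akap12, was called higher at day 11, where 12 of the 17 had a fold change above 0. A place on this list does not show that a product anchors protein kinase A. The tested gene on the list with the highest mean level was Mapt, which encodes the microtubule protein tau. It averaged 548 ± 197.1 CPM in cKO and 588 ± 205 CPM in flox at day 11 (SD, n = 4 each), against 1183 ± 302 CPM in cKO and 948 ± 381 CPM in flox after PBS (n = 3 each), a log2 fold change of -0.90 ± 0.22 (adjusted p = 0.103). Of 17 tested CREB target genes, 13 at day 4 and 12 at day 11 lay above 0, with medians of 1.03 and 1.25 beside 0.01 and 0.07 for all genes, but 0 were called, and 4 of the 17 lacked reads in at least 1 group. An unadjusted p under 0.05 was found for 3 of them at day 4 and 6 at day 11, against 9.28% and 9.12% of all genes. Rgs2, the CREB target with the highest mean level and an inhibitor of G protein signalling, was at 0.02 ± 0.25 at day 4 and 0.11 ± 0.24 at day 11.

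The remaining lists held 0 calls at day 4, at day 11 and between the genotypes. Of the 9 protein kinase A subunits and inhibitors, 5 at day 4 and 6 at day 11 lay above 0. Of the 7 tested adenylyl cyclases, 2 lay above 0 at each stage, and Adcy1 had the highest mean level, with a day 11 change of -0.73 ± 0.52. Of the 14 tested phosphodiesterases, 4 at day 4 and 7 at day 11 lay above 0, and Pde2a, stimulated by cyclic GMP and the highest in mean level, changed by 0.55 ± 0.35 at day 11. Of the 15 tested receptors and partners of the stimulatory G protein, 7 lay above 0 at each stage, and Pth1r, the parathyroid hormone receptor, was at -0.73 ± 0.24 at day 11 (adjusted p = 0.339). Of the 6 tested alpha subunits of the stimulatory and inhibitory classes, 5 lay above 0 at each stage, and Gnai2, an inhibitory subunit, was at 0.36 ± 0.13 at day 4 (adjusted p = 0.391). Among the 14 tested CREB family members and coactivators, 4 at day 4 and 7 at day 11 lay above 0, and Crebbp, a coactivator that binds phosphorylated CREB, was at -0.06 ± 0.35 at day 11.

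The gene whose level followed that of Akap12 most closely over the 21 libraries was Col4a2, a chain of basement membrane collagen, with a Pearson correlation of 0.88 and a Spearman correlation of 0.89 on log2 CPM among 3473 candidate genes. The coefficient was 0.76 without the 2 libraries farthest from the Akap12 median and 0.70 after group means were removed. The next were Myh9, a non-muscle myosin (0.81), Coro1c, a coronin that binds actin (0.80), Sparc, a matrix glycoprotein (0.80), and Actb, cytoplasmic actin (0.79). Col4a2, Sparc and Actb were among the 17 genes called at day 11, so the stage is shared by both sides of these correlations, as are the library and its depth, and they are given as description with no test.

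**Figure D5:**
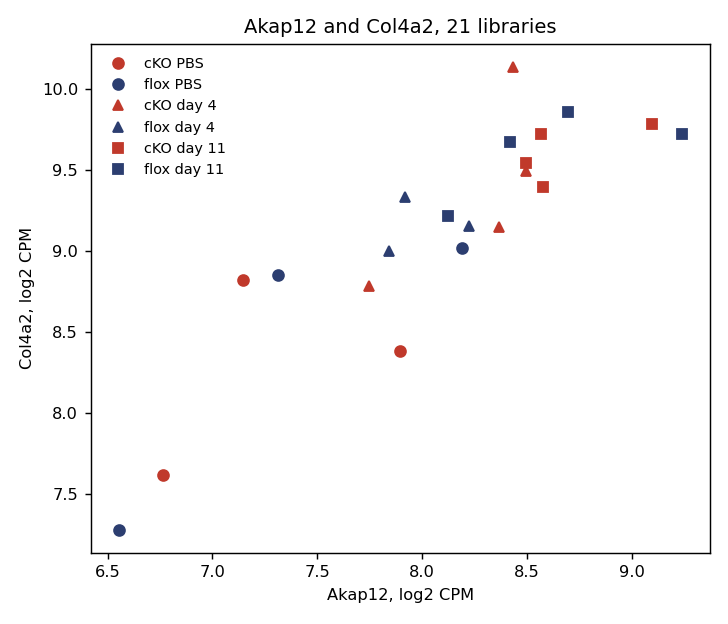
Col4a2 (y axis) against Akap12 (x axis), both in log2 CPM, in the 21 libraries, with colour for genotype and shape for stage. The PBS libraries lie mostly at the lower left and the day 11 libraries mostly at the upper right, with r of 0.88 over all. The stages overlap: flox PBS replicate 1 (Akap12 at 8.19) lies to the right of flox day 11 replicate 2 (8.125).

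For the other members, the closest genes were Csnk1a1 for Akap13 (r of 0.77), Tubb2a for Prkar1a (0.80) and Pcf11 for Prkar2a (0.70). They were Ube2b for Prkacb (0.70), Ubr3 for Creb1 (0.69) and Tug1 for Gnas (0.73). Without the 2 libraries farthest from the member's median, these were 0.77, 0.555, 0.76, 0.64, 0.60 and 0.54 in that order. Each gene was picked as the highest of 3473 candidates. The closest to Prkaca was Ubap2 at 0.85, with 0.28 without the 2 libraries farthest from the median, and the closest to Pde4b was H2-Q7 at 0.78, with 0.08 without them, so both rest on those libraries. Prkar2b was too low for this comparison.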

How the data were processed

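Each library had a deposited table of estimated counts, without normalization per the file headers. The submitters' processing notes name DRAGEN, Picard, fastp and FastQC and the build mm10. For the roles of these tools, the strand setting, the annotation release and the treatment of duplicates, details were not given in the sources used here. Rounded estimated counts entered edgeR 4.0.16 under R 4.3.3 (filterByExpr, minimum count 10, TMM, robust quasi-likelihood F test), with all 21 libraries in 1 model of 6 group means and 15 residual degrees of freedom. A call required an adjusted p (Benjamini-Hochberg, over the 13898 genes tested) under 0.05, and each adjusted p is from this test unless another tool is named. The common biological coefficient of variation was 1.66. Log2 CPM used a prior count of 2. Symbols and positions came from GENCODE M21, which matched 35513 of 35598 identifiers, Akap12, Akap13 and Gnas by an older version number.

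The members, pathway lists and tests were chosen with earlier results of these data known. The text names all members, the member of each pathway list with the highest mean level, called list members, and the gene most like each member. Alternatives were median-ratio size factors, no low-count filter, DESeq2 1.42.0, voom in limma 3.58.1, a replicate block, removal of ribosomal and mitochondrial genes, and leaving out libraries. Every voom fit used sample quality weights, which give outlying libraries less weight, and robust moderation. Within-genotype contrasts of Akap12 were added later. The procedure was also run on simulated counts, and the outcome is not given here. All changes planted there were larger than that of Akap12, so the run does not bear on a change of that size. Figures used matplotlib 3.10.9.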

Additional observations from a re-analysis of the deposited data

Results flagged for a closer look

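Of the 30 combinations of a member and a group of 4 mice, 5 held a library that stood apart from its group. The test was Dixon's at the 95% level on linear CPM, where about 1 in 20 is flagged if values follow a normal distribution. The share flagged over all genes was not computed, so the count does not show an excess among the members. Akap12 was 546 CPM in cKO day 11 replicate 2, against 361 to 381 CPM in the other 3 libraries. Prkar2a was 209 CPM in cKO day 11 replicate 1, against 78.6 to 99 CPM. Prkar2b was 110 CPM in cKO day 4 replicate 3, against 0 to 5.03 CPM, and Prkaca was 346 CPM in the same library, against 1.16 to 50.5 CPM. That library also had the fewest genes detected, 7871, and the highest summed tubule markers, whose part in these values was not tested. Prkaca was 113 CPM in flox day 11 replicate 2, against 60.6 to 67.0 CPM.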

How the results depend on the processing

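The Akap12 rise at day 11 kept its call with median-ratio size factors (1.28), no low-count filter (1.27), DESeq2 (1.28), limma voom (1.32), removal of ribosomal and mitochondrial genes (1.27) and removal of cKO day 4 replicate 3 with cKO day 11 replicate 3 (1.29). These values are log2 fold changes. The call was lost with the replicate block (1.29, adjusted p = 0.112, 0 members called). It was also lost on leaving out any of 9 libraries (log2 fold change 1.11 to 1.52, adjusted p 0.00684 to 0.154 over all 21). The cause was not tested. The labels share replicate numbers, but same-numbered libraries did not visibly deviate together over all tested genes. The median correlation over 48 pairs was -0.001, and 0 pairs exceeded 0.1. Pairs with different numbers had the same median, -0.001, and 3 of 21 libraries correlated best with their own number. A factor shared by number that acts on few genes could be missed in this way. What the numbers stand for therefore stays unknown. In the contrasts of 1 genotype, DESeq2 called Akap12 at day 11 in cKO (1.42, adjusted p = 0.00544) and flox (1.14, adjusted p = 0.0385). Voom called it in cKO (1.46, adjusted p = 0.0344). The share of all genes that these tools called in those contrasts was not computed. Averaged over the genotypes, DESeq2 called 1164 genes and voom 90 at day 11, against 17 by edgeR. By edgeR neither contrast of 1 genotype passed (adjusted p = 0.632 in cKO and 0.579 in flox). Members called stayed at 0 in the other 7 comparisons under every setting.

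Counts of all genes called depended on the tool. For day 4 and day 11 against PBS edgeR called 3 and 17, DESeq2 1256 and 1164, voom 16 and 90, and edgeR without the low-count filter 17 and 39. With the block edgeR called 10 at day 11, and without both doubted libraries 17 and 37. For cKO against flox over the stages, after PBS, at day 4 and at day 11, edgeR called 1, 0, 0 and 0, DESeq2 904, 935, 800 and 495, voom 3, 41, 8 and 13, and edgeR without the filter 3, 1, 2 and 1. Without both doubted libraries it called 1 after PBS. For the difference in response at day 4 and day 11 edgeR called 0 and 0, DESeq2 1113 and 951 and voom 10 and 4. Leaving out 1 library gave 2 to 16 and 12 to 30 genes for the stages, then 1 to 3, 0 to 2, 0 to 14 and 0 to 1 between genotypes, and 0 to 4 and 0 to 0 for the response.

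Of 76 fold changes, 18 changed sign under another setting, the largest of them 0.95 in size, and 33 on leaving out 1 library. None of these was called. Uncalled values also moved in size: Pde4b between cKO and flox at day 11 was -2.13 with voom and -1.62 with the replicate block. Median-ratio factors and DESeq2 both gave -0.02 for Gnas after PBS (cKO against flox) and 0.04 for the day 4 difference in response of Prkar1a. Voom gave, at day 4 against PBS, -0.47 for Prkaca and -0.17 for Pde4b. For cKO against flox it gave -0.53 for Prkaca and 0.00033 for Creb1 over the stages, 0.03 for Pde4b after PBS, 0.02 for Akap13, -1.89 for Prkaca and -0.35 for Pde4b at day 4, and -0.14 for Prkaca and -0.09 for Creb1 at day 11. For the difference in response it gave -2.32 for Prkaca and -0.38 for Pde4b at day 4, and -0.06 for Prkar2a and -0.04 for Creb1 at day 11. The replicate block gave 0.0044 for Creb1 over the stages, 0.01 for Pde4b after PBS, and, for the difference in response, -0.08 for Akap13 at day 4 and -0.08 for Prkar2a and 0.01 for Prkaca at day 11. Without both doubted libraries Pde4b was -0.07 at day 4 against PBS. Between cKO and flox Prkaca was then -0.30 over the stages, -1.04 at day 4 and -0.02 at day 11, Akap13 0.06 and Pde4b -0.33 at day 4, and Creb1 -0.02 at day 11, and the day 4 difference in response was -1.21 for Prkaca and -0.30 for Pde4b.

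On leaving out 1 library the reversed values ranged as follows. For cKO against flox over the stages they ran from -0.08 to 0.22 for Akap12, -0.03 to 0.33 for Akap13, -0.17 to 0.13 for Creb1, -0.28 to 0.46 for Prkaca and -0.07 to 0.19 for Prkar2a. After PBS they ran from -0.55 to 0.35 for Akap12, -0.54 to 0.19 for Akap13, -0.39 to 0.06 for Creb1, -0.20 to 0.21 for Gnas, -0.26 to 0.17 for Pde4b, -0.11 to 0.56 for Prkaca and -0.11 to 0.48 for Prkar2a. At day 4 they ran from -0.62 to 0.12 for Akap13, -0.32 to 0.57 for Creb1, -0.33 to 0.44 for Pde4b, -1.04 to 1.19 for Prkaca and -0.70 to 0.07 for Prkar2a. At day 11 they ran from -0.13 to 0.25 for Akap12, -0.26 to 0.24 for Creb1, -0.10 to 0.27 for Prkaca and -0.14 to 0.47 for Prkar2a. The difference in response at day 4 ran from -0.04 to 0.86 for Akap12, -0.41 to 0.45 for Akap13, -0.11 to 0.78 for Creb1, -0.30 to 0.47 for Pde4b, -1.21 to 1.02 for Prkaca and -0.36 to 0.14 for Prkar1a. At day 11 it ran from -0.33 to 0.57 for Akap12, -0.04 to 0.45 for Creb1, -0.41 to 0.02 for Gnas, -0.56 to 0.12 for Prkaca and -0.34 to 0.39 for Prkar2a. Day 4 against PBS ran from -0.07 to 0.31 for Pde4b. With 3 or 4 mice a group and this spread, small differences were not detectable. Of the 60 group mean levels, 33 moved by more than 1 SD when ribosomal and mitochondrial genes were left out of the totals, and 1 with median-ratio factors.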
